A study of Caenorhabditis elegans with 2 samples.

Results

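The genes described here encode the vacuolar ATPase, the core autophagy machinery and 3 lysosomal proteins of the nematode Caenorhabditis elegans, and the measurement is where the SOMI-1 protein sat near their starts. They were chosen by symbol among the 19973 protein-coding genes of the nuclear chromosomes: every vha and atg gene, plus unc-32, lgg-1, lgg-2, lgg-3, bec-1, unc-51, cup-5, laat-1 and cpl-1. This gave 41 genes, of which 21 encode subunits or accessory proteins of the vacuolar ATPase, 17 act in autophagy and 3 are lysosomal.

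SOMI-1, a zinc finger protein, was mapped by chromatin immunoprecipitation followed by sequencing (ChIP-seq) with an antibody against GFP. All animals were of strain OP752, which carries the unc-119(tm4063) mutation and the transgene wgIs752, in which somi-1 is fused to TY1, EGFP and 3xFLAG tags beside a rescuing copy of unc-119. Whole young adults of pooled sex were collected at 65.5 hours after starvation of the first larval stage, as 2 biological replicates of 1 group, with no second genotype or treatment. Whole animals were used, so the tissue in which a peak arose cannot be told from these data, and the genotype names no change at the native somi-1 gene.

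The vacuolar ATPase is a proton pump. Its cytosolic V1 sector hydrolyses ATP and its membrane-embedded V0 sector carries protons into lysosomes and other compartments, which keeps them acidic. In autophagy, a membrane grows around cytoplasm, closes and fuses with a lysosome. A kinase complex starts this, a lipid kinase complex marks the membrane, and conjugation enzymes couple the small ubiquitin-like ATG8 proteins to lipid. In C. elegans the TFEB homologue HLH-30 is known to control many lysosomal and autophagy genes.

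A gene counted as having a peak when a peak's summit, the position of its highest signal, fell in its promoter window. That window spans 1000 bp before and 200 bp after each annotated transcript 5′ end. Many C. elegans transcripts are trans-spliced, so an annotated 5′ end need not be where transcription starts. There were 4 peak lists: 1 from each replicate (29600 and 26067 peaks), a joint list called on both (26266 peaks), and the 1667 peaks of the joint list that passed the authors' irreproducible discovery rate threshold, called thresholded from here on. The peak signal is the authors' own value. It has no stated unit, was compared within a list only, and ran from 28.5 to 841 in the joint list, with a median of 39.4. The read depth was not given in the sources used here.

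Of the 41 genes, 7 (17.1%) had a thresholded summit in the promoter window, against 4.34% of all protein-coding genes. They were lgg-2, vha-8, lgg-1, vha-12, cpl-1, vha-1 and atg-7. By family they were 3 of 21 vacuolar ATPase genes, 3 of 17 autophagy genes and 1 of 3 lysosomal genes, the last a share that rests on a single gene. The 7 genes held 8 thresholded summits, since lgg-2 had 2 of them. Each of the 8 summits also lay inside a peak of both replicates' own lists. The thresholded list was itself selected for agreement between the replicates, so this adds little to it. Counts are given as descriptions, and no test of the list was made, because the genes are not replicates and were chosen with earlier results of these data known.

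The reference sequence from 50 bases before to 50 bases after each thresholded summit upstream of an annotated 5′ end is given for 5 of these genes, because these are the places the results turn on. Sequences are the plus strand of the RefSeq copy of WBcel235 (the assembly also named ce11), written 5′ to 3′, and capitals mark letters that match 1 of the 6 short words searched below. The windows are lgg-2 upstream at chrIV:10936177-10936277, lgg-2 intron at chrIV:10935413-10935513, lgg-1 at chrII:6348579-6348679, vha-8 at chrIV:6790567-6790667, vha-12 at chrX:4190714-4190814 and vha-1 at chrIII:9780802-9780902. None of them overlaps an annotated UTR.
lgg-2 upstream: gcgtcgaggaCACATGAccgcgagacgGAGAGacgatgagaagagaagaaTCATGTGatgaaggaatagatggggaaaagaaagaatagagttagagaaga
lgg-2 intron: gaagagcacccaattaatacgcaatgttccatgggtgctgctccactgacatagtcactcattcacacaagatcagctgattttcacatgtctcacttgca
lgg-1: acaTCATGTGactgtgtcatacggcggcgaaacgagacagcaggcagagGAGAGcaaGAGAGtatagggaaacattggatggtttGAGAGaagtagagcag
vha-8: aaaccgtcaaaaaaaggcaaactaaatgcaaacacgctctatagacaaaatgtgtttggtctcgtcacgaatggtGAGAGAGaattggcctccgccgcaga
vha-12: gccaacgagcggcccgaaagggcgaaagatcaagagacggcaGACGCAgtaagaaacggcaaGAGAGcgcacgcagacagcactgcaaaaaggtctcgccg
vha-1: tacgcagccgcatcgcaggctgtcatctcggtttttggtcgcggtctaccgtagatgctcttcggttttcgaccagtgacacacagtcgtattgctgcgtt

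The strongest peaks of the set stood at lgg-2 (WBGene00002981), which encodes an ATG8 homologue of the LC3 type. The gene lies on chromosome IV from 10934196 to 10935903 on the minus strand and has 2 annotated 5′ ends, at 10935903 and 10935039. The upstream peak ran from 10936109 to 10936307, with its summit 324 bp before the first 5′ end, outside any protein-coding gene. Its signal was 300.1 in the joint list, where it ranked 82 of 26266, and 123 and 179.9 in the lists of replicates 1 and 2. The replicates' own summits lay 1 and 10 bp from the joint summit. The second peak, from 10935447 to 10935564, lay in an intron between the 2 annotated 5′ ends, with its summit 424 bp before the internal one. Replicate 2's own summit there lay 416 bp before the internal 5′ end. Replicate 1's own summit lay nearer to the first 5′ end, 405 bp downstream of it, so whether this peak counts as upstream depends on the list. Its signals were 251 in the joint list (rank 141), 114 in replicate 1 and 143 in replicate 2. No other promoter window of the 41 genes held a signal as high as either of these in any of the 3 lists.

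The other ATG8 homologue, lgg-1 (WBGene00002980, II:6346960-6347719, minus strand), which is of the GABARAP type and commonly used to mark autophagosomes, had peaks on both flanks. The thresholded summit counted for it lay 910 bp upstream of its single annotated 5′ end, outside protein-coding genes. It had a signal of 144 in the joint list, 55.2 in replicate 1 and 89.7 in replicate 2. A weaker joint summit stood 7 bp inside the 5′ UTR (signal 62.1), where replicate 1 had no peak over it. Past the promoter window, 2 more thresholded summits lay at the other end of the gene. One fell on the last annotated base of the 3′ UTR (signal 117, 759 bp from the 5′ end) and the other 967 bp from the 5′ end (signal 157). Both of these also lay in the promoter window of the neighbouring gene C32D5.8. The first had signals of 56.8 and 49.2 in replicates 1 and 2, and the second 84.2 and 84.5.

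**Figure D1:**
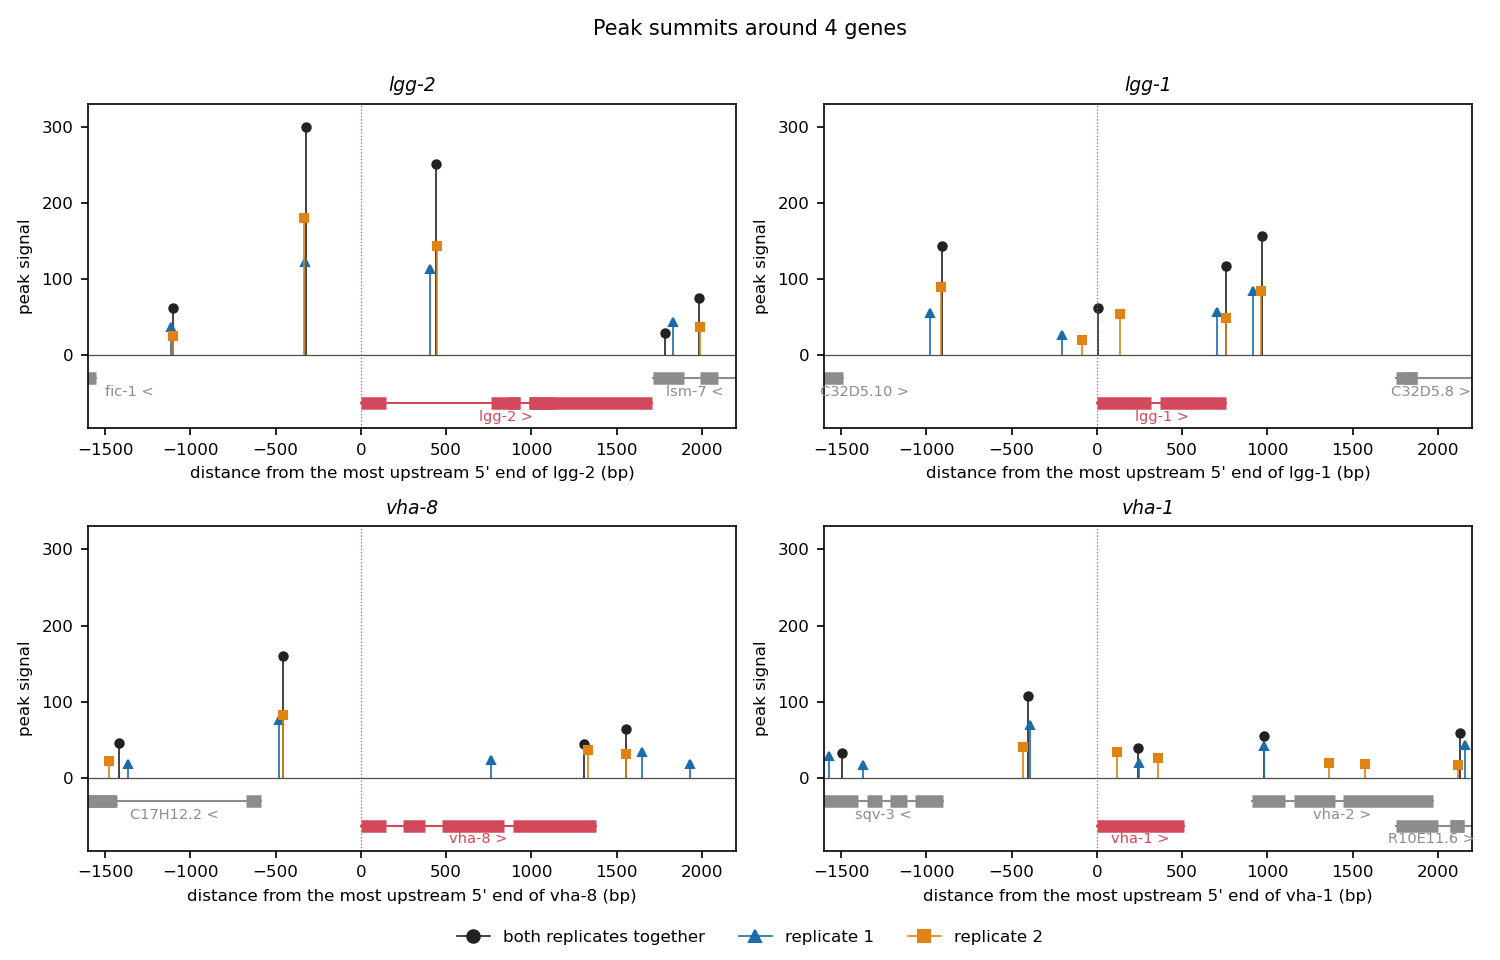
Summits of the joint list (circles) and of replicates 1 (triangles) and 2 (squares) around lgg-2, lgg-1, vha-8 and vha-1, with the distance from the most upstream annotated 5′ end in bp on the x axis and the authors' peak signal on the y axis; thick bars below are exons, and arrowheads give the direction relative to the named gene. The lgg-2 peaks reach 300.1 and 251 in the joint list, and lgg-1 has peaks on both sides of the gene.

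In the V1 sector of the vacuolar ATPase, 2 of 9 genes had a thresholded summit (22.2%, against 4.34% of all genes). The gene vha-8 (WBGene00006917, IV:6791074-6792455) encodes the E subunit, part of the peripheral stalk. Its summit lay 457 bp upstream, with signals of 159.6 in the joint list, 76.2 in replicate 1 and 83.5 in replicate 2. This summit lay nearer to the divergent neighbour C17H12.2, at 129 bp upstream of that gene's 5′ end. The gene vha-12 (WBGene00006921, X:4191094-4193144) encodes the B subunit of the catalytic head. Its summit lay 330 bp upstream, with signals of 143 in the joint list, 66.3 in replicate 1 and 70.4 in replicate 2. No other protein-coding gene's promoter window held it, and the nearest upstream gene, mrp-6, began 4337 bp away. The replicates' own summits were within 21 bp of the joint one for vha-8 and within 8 bp for vha-12.

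The rest of V1 had weaker peaks or none. Joint-list summits stood at vha-11, the C subunit (strongest signal 67.3), vha-13, the catalytic A subunit (59.2), and vha-15, an H subunit (54.7), and each of these genes had a summit in both replicates' lists. For vha-11 the stronger summit lay 913 bp upstream, inside the coding exon of vha-3. That V0 gene lies upstream on the same strand with a gap of 892 bp. The other joint summit of vha-11, of similar signal (61.4), lay 91 bp downstream of the vha-11 5′ end, in a vha-11 coding exon. Both vha-11 summits lay inside peaks of both replicates. For vha-13 the stronger summit lay 593 bp upstream, in the 3′ UTR of cept-2, which ends 226 bp before vha-13. The genes of the F, G and D subunits, vha-9, vha-10 and vha-14, had no joint summit in the window and a summit there in replicate 2 alone (strongest signals 22.1, 18.1 and 24.8). The gene vha-10 had 2 joint summits beyond the window, inside the gene. The window of vha-18, which encodes another H subunit, held no summit in any list.

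In the V0 sector, 1 of 10 genes had a thresholded summit (10%, against 4.34%), a share that rests on a single gene. It was vha-1 (WBGene00006910, III:9781254-9781763), 1 of the genes for the c subunit that forms the rotating ring. The summit lay 402 bp upstream, between vha-1 and the divergent gene sqv-3 at 498 bp, with signals of 108 in the joint list, 69.3 in replicate 1 and 41.1 in replicate 2. The next gene downstream, vha-2, also encodes a c subunit and begins 400 bp after the end of vha-1 on the same strand. The summit at vha-1 lay 1312 bp upstream of vha-2, outside its window. The strongest joint summit counted for vha-2 lay 72 bp downstream of its 5′ end, in a coding exon (signal 55.3), in a peak of replicate 1 alone. A weaker joint summit of vha-2 (39.65) lay 670 bp upstream, in a coding exon of vha-1, with signals of 20.3 and 26.6 in replicates 1 and 2. Where such neighbours share a transcript, the annotated 5′ end of the second is not where transcription starts, and which of them do was not examined.

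The 4 genes for the V0 a subunit, which sets the location of the pump, differed. The neuronal gene unc-32 had a joint summit 138 bp upstream (signal 63.7, with 20.9 and 45.9 in replicates 1 and 2), and the intestinal gene vha-6 had one 282 bp upstream (49.7, with 24.6 and 24.5). The promoter windows of vha-5 and vha-7 held no summit in any list, and 2 and 3 joint summits lay inside these genes beyond the windows. A thresholded summit also stood 1355 bp upstream of unc-32 (signal 144), outside its window and inside that of the divergent gene lin-9. Of the other V0 genes, vha-16, the d subunit, and vha-17, the e subunit, had joint summits with signals of 39.4 and 35.6, both with a summit in replicate 2 and none in replicate 1. The promoter windows of vha-3 and vha-4, the c and c″ genes, held no summit in any list, although 2 joint summits lay inside vha-3 itself, 1 of them the summit counted for vha-11. Of the 2 accessory genes, vha-20 had a summit 20 bp downstream of its 5′ end, in a coding exon (62.7, with 42.3 in replicate 1 and none in replicate 2). The gene vha-19, the homologue of mammalian Ac45, had none in its window and 3 joint summits farther inside the gene.

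**Figure D2:**
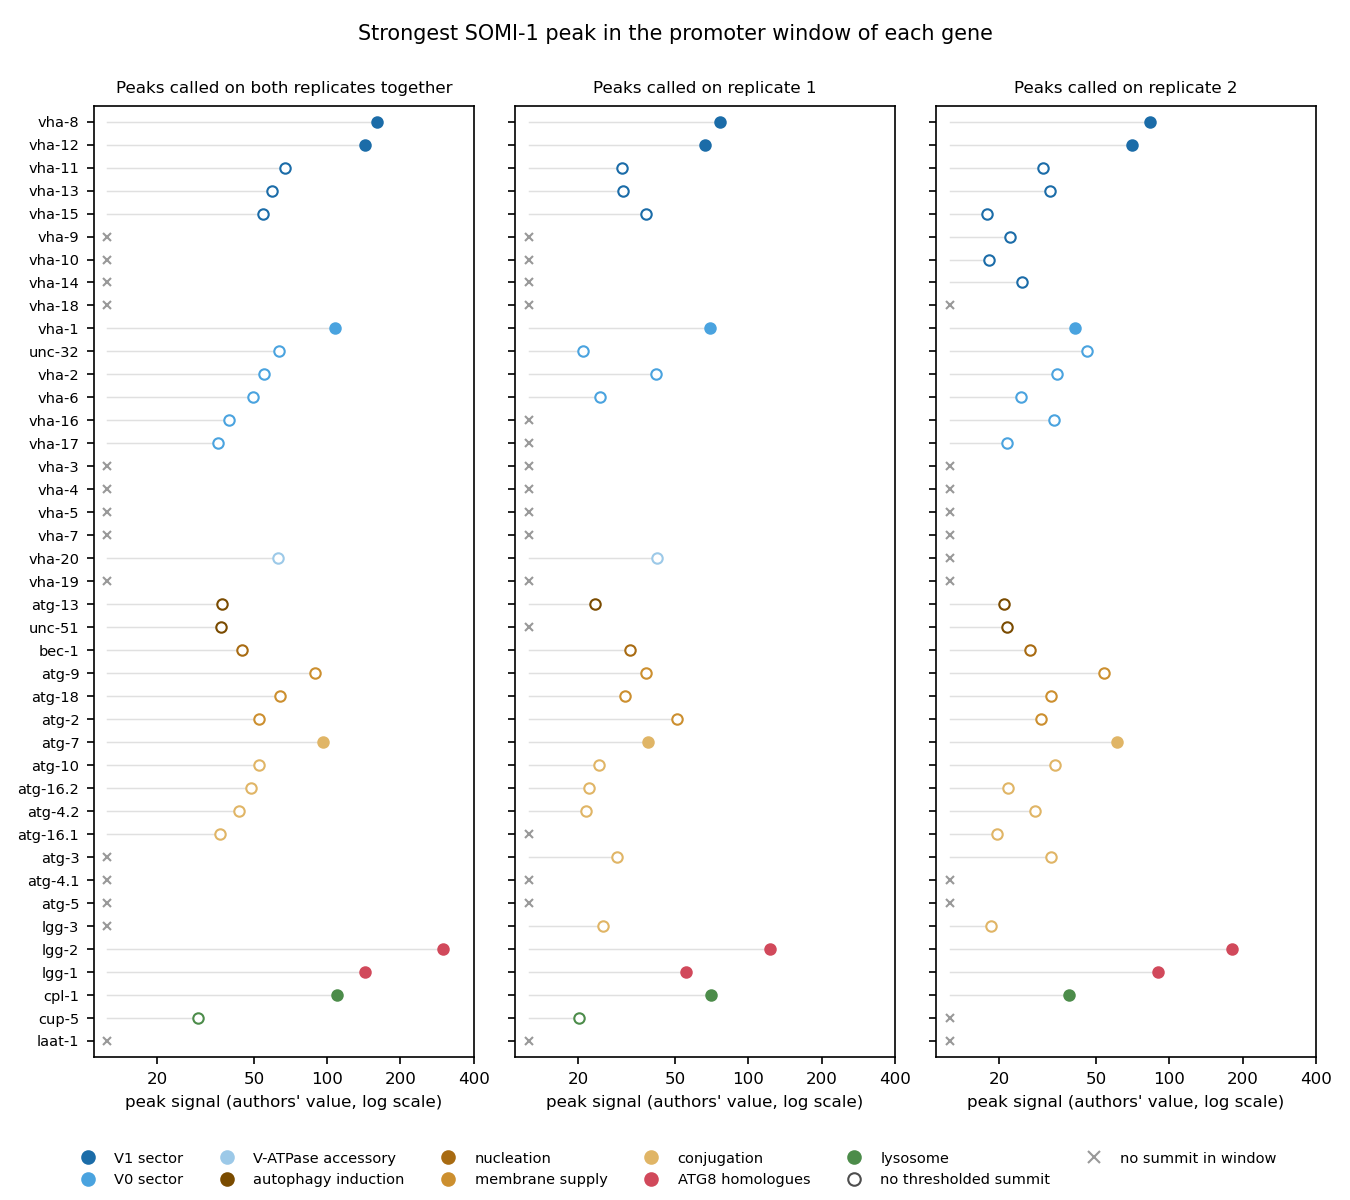
Signal of the strongest peak in the promoter window of each of the 41 genes in the joint list and in each replicate's list, on a log axis; filled circles are the 7 genes with a thresholded summit, open circles the others, and crosses mark genes with no summit in that list. The gene lgg-2 stands highest in every panel, and 14 genes have a cross in the joint list.

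In the autophagy conjugation group, 1 of 9 genes had a thresholded summit (11.1%, against 4.34%), again a single gene. It was atg-7 (WBGene00010882, IV:11078682-11081055, minus strand), which encodes the activating enzyme of both conjugation reactions. The summit lay 177 bp downstream of the 5′ end, in an intron, with a joint signal of 96.5 (rank 1472), near the foot of the thresholded list. A second joint summit lay 43 bp upstream (signal 81.5), in the 3′ UTR of let-70, a ubiquitin-conjugating enzyme gene that ends 30 bp before atg-7 on the same strand. Each replicate had a single peak over these places, with a signal of 38.7 and a summit 130 bp downstream in replicate 1, and a signal of 60.8 and a summit 6 bp upstream in replicate 2. The position of this peak therefore differed by 136 bp between the replicates, more than at the other thresholded summits.

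Weaker joint summits were present at 4 further conjugation genes. They stood at atg-10, an E2-like enzyme gene (signal 52.3, 37 bp upstream), atg-16.2 (48.7, 206 bp upstream), the protease gene atg-4.2 (43.3, 40 bp upstream) and atg-16.1 (36.2, 95 bp upstream). All but atg-16.1, whose window held no summit in replicate 1, had a summit in both replicates. The genes atg-3, an E2-like enzyme, and lgg-3, the ATG12 homologue, had no joint summit in the window, and each replicate had a summit there. At atg-3 these were different peaks, at different 5′ ends. Replicate 1 had a summit 387 bp upstream (29.0) and replicate 2 a summit 69 bp downstream (32.6), neither inside a peak of the other replicate. At lgg-3 the strongest summits lay 185 bp upstream in replicate 1 (25.3) and 584 bp upstream in replicate 2 (18.4). A weaker summit of replicate 1 (19.8) lay in the peak of replicate 2. No list had a summit in the windows of atg-4.1 or atg-5.

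The genes that start autophagy (unc-51, atg-13 and bec-1) and supply its membrane (atg-2, atg-9 and atg-18) all had joint summits, against 35.0% of all protein-coding genes. None of these summits passed the threshold, where 4.34% of all genes had a thresholded summit. The groups are small, of 1 to 3 genes each. The kinase gene unc-51, a homologue of ULK1, had one 223 bp upstream (36.7) and its partner gene atg-13 one 553 bp upstream (36.8). The unc-51 summit lay in a peak of replicate 2 alone, and the atg-13 summit in a peak of replicate 1 alone. The gene bec-1, the Beclin 1 homologue, had 2, both in coding exons and upstream of an internal 5′ end (44.5 and 38.4), of which the stronger lay in a peak of replicate 1 alone and the weaker in a peak of replicate 2 alone. The membrane group was stronger. The gene atg-9, which encodes the transmembrane protein of the seed vesicles, had a summit 124 bp upstream with signals of 89.4 in the joint list, 38.1 in replicate 1 and 54.1 in replicate 2. It ranked 1731, just below the 1667 thresholded peaks. The gene atg-18, whose product binds phosphoinositides, followed with a summit 147 bp upstream and signals of 64.0, 31.1 and 32.5. For atg-2, a lipid transfer protein gene, the joint signal was 52.4 and the summit lay in an intron, 256 bp before an internal 5′ end. A peak of replicate 1 held that summit and none of replicate 2 did, although each replicate had a summit elsewhere in the window. Outside the windows, a thresholded summit lay 1411 bp upstream of unc-51 (signal 127, with 63.4 and 65.9 in the replicates).

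Of the lysosomal genes, cpl-1 (WBGene00000776, V:16592572-16595346, minus strand), which encodes cathepsin L, had a thresholded summit 175 bp downstream of its first 5′ end, in a coding exon. Its signals were 109 in the joint list, 70.1 in replicate 1 and 38.6 in replicate 2. Its windows held 3 more joint summits, 1 of them 38 bp upstream of that 5′ end (66.9) and the other two in an intron (43.4 and 40.9). A thresholded summit of signal 164 also lay past the 3′ end of the gene, inside a tRNA gene. The gene cup-5, the homologue of the mammalian lysosomal channel mucolipin-1, had a joint summit in an intron with a signal of 29.6, near the lowest of the list, and no peak of either replicate over it. No list had a summit in the window of laat-1, which encodes a lysosomal transporter of lysine and arginine.

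The share of genes with a peak was above that of all protein-coding genes in every list. The joint list had a summit in the window of 27 of the 41 genes (65.9%), against 35.0% of all protein-coding genes. By family these were 12 of 21 vacuolar ATPase genes, 13 of 17 autophagy genes and 2 of 3 lysosomal genes. Replicate 1 had a summit at 25 genes (61.0%, against 37.9%) and replicate 2 at 30 (73.2%, against 34.9%). Both replicates had one at 23 (56.1%, against 22.8%), and both replicates and the joint list at 21 (51.2%, against 21.4%). These counts ask for any summit in each list, not for the same peak. In the vacuolar ATPase family 9 of 21 genes had a summit in both replicates, and in the autophagy family 13 of 17. Among these 13 were atg-2, atg-3, atg-13 and bec-1, where no summit of either replicate lay inside a peak of the other. Whether the families differ from each other was not tested.

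**Figure D3:**
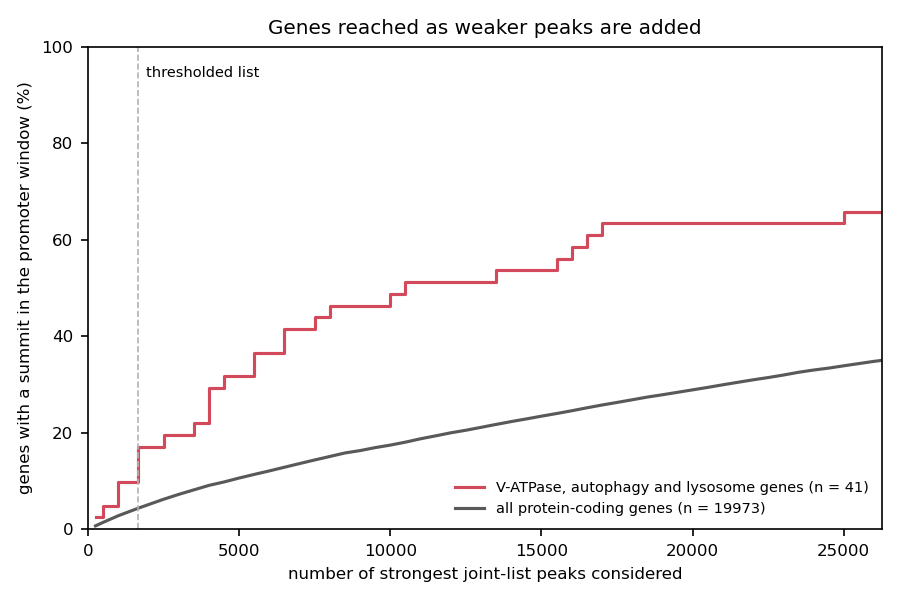
Percentage of genes with a summit in the promoter window as more of the joint-list peaks are considered, from the strongest on the left to all 26266 on the right, for the 41 genes (red) and all 19973 protein-coding genes (grey); the dashed line marks the 1667 thresholded peaks. The red line lies above the grey one throughout, at 17.1% against 4.34% at the dashed line and 65.9% against 35.0% at the right end.

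The difference was also present in larger sets, which add weaker peaks to the strongest ones and so contain them. Among the 5000 strongest joint peaks, 13 of the 41 genes had a summit (31.7%), against 10.6% of all genes, and among the 10000 strongest 20 had one (48.8%), against 17.4%. The weakest peaks added little: 26 genes had a summit among the 17000 strongest peaks and 27 in the whole list. Over the same step the share of all genes rose from 25.7% to 35.0%. Over the 27 genes with a joint summit, the median of the strongest signal was 55.3, with a range of 29.6 to 300.1. Over the 6991 protein-coding genes with a joint summit it was 43.7. A gene with several annotated 5′ ends can have a longer window, and 27 of the 41 genes had a single one (65.9%), against 72.6% of all genes. When the most upstream 5′ end alone was used, so that each gene had 1 window of 1000 bp before and 200 bp after that end, 7 of 41 genes had a thresholded summit (17.1%, against 3.84% of all genes). In that setting 24 had a joint summit (58.5%, against 31.7%). No other factor was analysed here, and whether such peaks are particular to SOMI-1 was not tested.

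The agreement of the replicates at the 38 joint summits in these windows was counted peak by peak. Of the 38, 24 lay inside a peak of both replicates (63.2%), 5 in replicate 1 alone, 8 in replicate 2 alone and 1, at cup-5, in neither. Over the 8251 joint summits in promoter windows of all genes, each counted once, 49.1% lay in a peak of both. Across the 24 summits the replicates' signals had a Spearman rho of 0.645, and 0.542 over the 4053 such summits of all genes. Both values describe peaks of the same pair of samples, whose peaks share their libraries, so no p-value is given.

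Summits stood on both sides of the annotated 5′ ends of these genes, most of them upstream. Most of the window also lies upstream (1000 bp before and 200 bp after), so such a majority follows largely from the window. The median distance was 366 bp for the 8 thresholded summits and 207.5 bp for all 38 joint summits, and for all genes it was 302 bp over 924 and 277 bp over 9379 pairs of a gene and a summit, in which a summit shared by several genes counts once for each. Of the 8, 6 lay upstream (75%, against 92.3% of the 924 pairs) and 2, at atg-7 and cpl-1, downstream. The 6 include the intron summit of lgg-2, where replicate 1's own summit lay 405 bp downstream of the first 5′ end. Of the 38, 30 lay upstream (78.9%), against 79.9% of the 9379 pairs. Within 200 bp of the 5′ end stood 18 of the 38 summits (47.4%, against 41.4% of those pairs) but 2 of the 8 thresholded ones (25%, against 33.8% of the 924 pairs). The values for 8 summits rest on few data, and the differences were not tested.

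**Figure D4:**
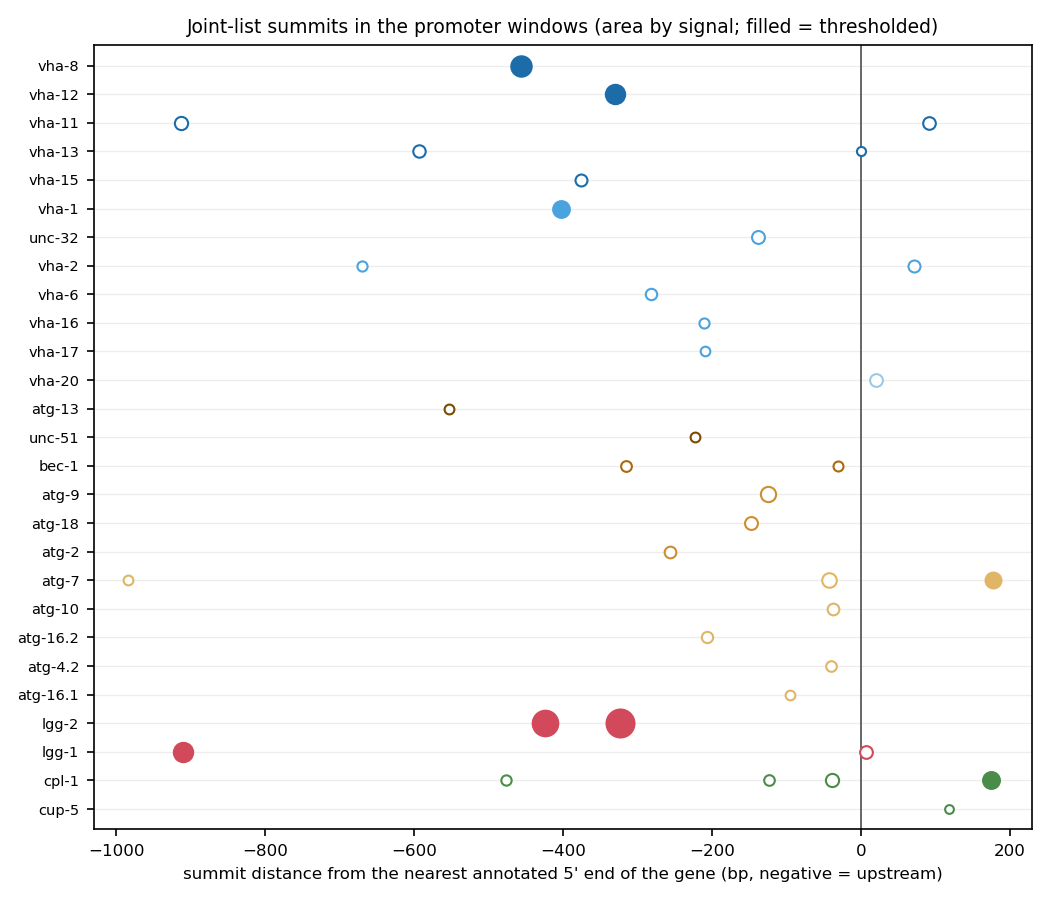
Position of each joint-list summit in the promoter windows of the 27 genes that have one, as distance from the nearest annotated 5′ end in bp (negative is upstream); the area of a circle grows with peak signal, filled circles are thresholded, and colours are the roles as in the plot of signals by gene. The filled circles lie between 910 bp upstream and 177 bp downstream, 2 of them past the 5′ end.

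Most summits belonged to the promoter window of 1 gene. Of the 38 joint summits, 4 lay also in the window of another protein-coding gene, and 2 of these were thresholded, at vha-8 and vha-1. The nearest upstream gene was on the same strand for 23 of the 41 genes, and for 9 of these it ended within 500 bp. Some windows therefore reach into a neighbour's body, as for atg-7, vha-2, vha-11 and vha-13. The counts of shared windows and of neighbours were not made over all protein-coding genes, so they describe these 41 genes without a comparison.

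The windows of 50 bases on either side of each summit were searched on both strands for 6 short words. The first was CACGTG, which is 1 form of the E-box (CANNTG). Its other forms were not counted as such. The second, TCACGTGA, is an E-box extended as in sites of TFEB-type factors and contains the first. The third was TGATAA, which matches sites of GATA-type zinc finger factors. The fourth was GACGCA, singled out in an earlier look at SOMI-1 summits in these data. The fifth was TCATGTG and the last was GAGAG, both picked after the printed sequences had been seen. CACGTG, its extended form and the GATA site were in 0 of the 8 thresholded windows, and in 7.59%, 1.07% and 7.06% of the 751 thresholded windows of all genes. GACGCA was present in 1 of the 8, at vha-12, with its centre 5 bp from the summit, and in 15.4% of the 751. Among the 38 joint windows CACGTG was present at atg-9 (2.63%, against 3.14% of the 8251 windows of all genes). The GATA site was present at cpl-1 and vha-15 (5.26%, against 9.76%), and GACGCA at vha-12 and atg-16.2 (5.26%, against 5.78%). TCACGTGA was in 0 of the 38 and in 0.352% of the 8251.

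TCATGTG, the M-box known as a site of the mammalian MITF and TFE proteins, contains CATGTG, another form of the E-box. The M-box stood in the windows of both ATG8 homologues. The upstream window of lgg-2 held it 2 times, with one copy centred 3 bp from the summit and the other, on the opposite strand, 37 bp away. The window of lgg-1 held 1 copy, centred 44 bp from the summit. The word was present in 2 of the 8 thresholded windows (25%) and in 3.60% of the 751. GAGAG was present in 5 of the 8, at lgg-1, lgg-2, vha-8, vha-12 and cpl-1 (62.5%, against 41.4%). Among the 38 joint windows TCATGTG was in 2 (5.26%, against 1.66% of the 8251) and GAGAG in 13 (34.2%, against 24.5%). Since both words were chosen from these sequences, the counts describe them and support nothing, and a match to a word is not a measured binding site. The median GC content of the windows was 45.0% at the 8 thresholded summits, against 47.5% over the 751. In the joint list the direction was the other way, with 44.55% over the 38 windows against 39.6% over the 8251.

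A list of 47 other genes of these pathways, none among the 41, was counted in the same way. Of them 5 had a thresholded summit in the window (10.6%, against the 4.34% of all genes), and 27 had a joint summit (57.4%, against 35.0%). The 5 were rab-7, which encodes the GTPase of late endosomes (signal 197, with 106 and 88.0 in the replicates, 767 bp upstream), epg-7, a scaffold for autophagy cargo (183, with 84.2 and 92.9, 166 bp upstream), and rheb-1, the GTPase that activates TORC1 (169, with 80.5 and 88.3, 262 bp upstream), followed by hlh-30 and epg-4 (91.2, with 52.5 and 36.7). The gene hlh-30, the TFEB homologue, held 3 thresholded summits in its windows (strongest 111, with 41.9 and 70.9) and 5 inside the gene. By group, 2 of 12 other autophagy genes, 1 of 22 other lysosomal genes, 0 of 7 genes of vacuolar fusion and 1 of 5 TORC1 genes had a thresholded summit. The thresholded share of the other lysosomal genes, 4.55%, was close to the 4.34% of all genes. In the joint list 10 of these 22 genes had a summit (45.5%, against 35.0% of all genes). The joint list also had a summit at 9 of the 12 autophagy genes (75%), 4 of the 7 genes of vacuolar fusion (57.1%) and 3 of the 5 TORC1 genes (60%). None of the 5 aspartic protease genes of the list (asp-1, asp-3, asp-4, asp-5 and asp-6) had a joint summit in the window, and of the 5 cpr genes, which encode cathepsin B-like proteases, cpr-4 and cpr-6 had one.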

How the data were processed

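ChIP-seq peaks of SOMI-1 from 2 biological replicates of 1 group were used as 4 lists in narrowPeak format on ce11. Text files that the authors deposited record peak calling per replicate and jointly, against a single control alignment, followed by an irreproducible discovery rate step over those 3 lists. Peak signal values were used as the authors deposited them, without a stated unit, and the −log10 q-value they deposited was not used. Not given in the sources used here are the aligner, the peak caller and the depth. Genes came from Ensembl release 115 (WBcel235), and sequence from the RefSeq copy, within whose chromosome lengths all peaks ended. Positions are 1-based.

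A replicate's signal at a joint summit is that of its peak holding the summit, with the nearest own summit where several did. Members, roles and lists were chosen with earlier results of these data known. By the rule for named genes, members with a thresholded summit are given in full, others with a joint summit by their signal, and the rest in groups by role. Alternatives were other windows, the nearest or the most upstream 5′ end, peak overlap, stricter lists and leaving out a replicate. The limits of 5000, 10000 and 17000 strongest peaks, the search for summits beyond the windows and 2 of the motifs were added after seeing the data. Assignment was tested on simulated data with planted summits. Python 3.11.15 and numpy 2.4.6 were used.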

Additional observations from a re-analysis of the deposited data

How the results depend on the processing

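When the window was narrowed to 500 bp before and 100 bp after the 5′ end, 4 of the 41 genes had a thresholded summit (9.76%, against 3.04% of all protein-coding genes), namely lgg-2, vha-1, vha-8 and vha-12, with 1 autophagy gene and 0 lysosomal genes among them. The 833 strongest thresholded peaks also left 4 genes (9.76%, against 2.35%), namely lgg-1, lgg-2, vha-8 and vha-12, and 0 lysosomal genes. When it was widened to 2000 bp before and 500 bp after, 5 vacuolar ATPase genes counted, unc-32 and vha-2 being added, and 10 genes in all (24.4%, against 6.14%). When each replicate's list was cut to its 1667 strongest peaks, 4 genes had a summit in both (9.76%, against 2.99%), in place of 23. With the nearest 5′ end alone vha-8 dropped out, since its summit lies nearer to C17H12.2. The thresholded list was also limited to summits inside a peak of replicate 2, and then to those inside a peak of replicate 1. Each time 7 genes had a thresholded summit, with 3 vacuolar ATPase, 3 autophagy and 1 lysosomal gene. The share over all protein-coding genes was 4.33% both times, against 4.34% before. These limits removed almost no peaks, so they could hardly change the counts, and no peaks were called anew without a replicate. In place of the joint list's 27, replicate 2's own list had 30 and replicate 1's own list had 25. All other alternatives were within 1.5 times the reported counts, and under every alternative the share over the 41 genes was above that of all protein-coding genes. No paired analysis was possible because there is 1 group. Without the read depth, a gene without a peak cannot be told from one below detection.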
